A study of Mus musculus with 106 samples.

Results

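Expression of 10 transcriptional regulators of brown adipocytes was followed through 11 mouse tissues kept at 10, 22 or 34 °C. The genes were Ppargc1a, Ppargc1b, Prdm16, Ebf2, Pparg, Ppara, Cebpa, Cebpb, Esrra and Esrrg. They were chosen by symbol as known regulators of the brown fat programme, with earlier results of these data known. They are 10 of the 21647 genes in the largest count table. All 10 were present in each of the 4 count tables.

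The mice were wild-type C57BL/6J males (labelled C57BL/6 in the cold set) that were 8 weeks old at the start, and none carried a transgene. Cold-exposed mice spent 5 days at 18 °C, 5 days at 14 °C and then 2 weeks at 10 °C. Warm-exposed mice spent 4 weeks at 34 °C, and each set had its own controls at room temperature (RT, 22 °C). The labels give an age of 11 weeks for 70 libraries and of 12 weeks for 36, the latter being the warm set together with all quadriceps libraries. In all, 11 tissues were analysed here at 10 °C and 5 of them also at 34 °C. There were 3 libraries for each tissue and temperature, except for spinal cord (5) and bone marrow (6). Most libraries pooled 2 mice, whereas spinal cord and bone marrow libraries came from single mice. The study's methods give pools of 2 for the whole warm set, but its list of samples differs for interscapular brown adipose tissue (iBAT). By that list, the 3 libraries at 22 °C and 2 of the 3 at 34 °C of this tissue came from single mice.

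Brown adipocytes burn fatty acids in mitochondria that are uncoupled by UCP1, and β-adrenergic signalling through cAMP switches this programme on. PPARG and the C/EBP factors establish any adipocyte, EBF2 and PRDM16 add the brown identity, and PPARA drives fatty acid oxidation genes. The coactivators PGC-1α (Ppargc1a) and PGC-1β (Ppargc1b) have no DNA-binding domain of their own and work through PPARs and the oestrogen-related receptors ERRα (Esrra) and ERRγ (Esrrg), which switch on mitochondrial genes.

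Promoter sequences were taken from RefSeq on GRCm38.p6, as the 250 bases before each annotated start. They were found for 8 of the 10 genes, with 13 promoters in all. Those of Ppargc1a, Ppara and Cebpa are shown because these genes fell together in cold-exposed iBAT, as described further on. Each is written 5′ to 3′ on the strand of its gene, and capitals mark a match to TGACG, the core of the cAMP response element (CRE), on either strand.
Ppargc1a (chr5:51567726-51567975, minus strand): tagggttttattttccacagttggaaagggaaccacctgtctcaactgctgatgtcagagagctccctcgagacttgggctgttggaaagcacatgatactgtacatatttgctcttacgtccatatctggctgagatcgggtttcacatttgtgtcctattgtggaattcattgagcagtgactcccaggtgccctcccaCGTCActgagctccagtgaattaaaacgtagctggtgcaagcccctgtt
Ppara (chr15:85735526-85735775, plus strand): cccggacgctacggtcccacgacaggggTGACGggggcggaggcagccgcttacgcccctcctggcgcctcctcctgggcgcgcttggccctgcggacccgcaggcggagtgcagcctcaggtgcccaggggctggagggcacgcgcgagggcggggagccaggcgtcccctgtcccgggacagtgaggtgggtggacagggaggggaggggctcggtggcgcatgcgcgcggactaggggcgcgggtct
Cebpa (chr7:35119043-35119292, plus strand): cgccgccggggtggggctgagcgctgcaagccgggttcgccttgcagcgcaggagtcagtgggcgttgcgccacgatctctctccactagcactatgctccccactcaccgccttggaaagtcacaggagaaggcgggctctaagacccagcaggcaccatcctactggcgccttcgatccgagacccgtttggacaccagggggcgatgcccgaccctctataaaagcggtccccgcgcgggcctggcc
The Ppargc1a window held the core once on the opposite strand, with its first base 49 bases before the start. The Ppara window held it once as written, 222 bases before the start, and the Cebpa window held none. A match to TGACG was present in 17.8% of 32851 promoters of this length. The full palindrome TGACGTCA, which contains the core, was present in 1.55% of promoters and in none of the 13 windows. The other motifs searched on both strands were the nuclear receptor core AGGTCA (14% of promoters), the ERR element TNAAGGTCA (1.1%) and the PPAR direct repeat DR1 (0.0335%), the last 2 of which contain AGGTCA. The C/EBP pattern TTGCNNCAA was present in 1.74% of promoters and the palindromic EBF pattern in 0.779%. Beyond the windows shown, TGACG occurred 3 times in the Cebpb promoter and AGGTCA once in 2 of the Pparg promoters. These are matches of letters and do not show binding.

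Library totals ran from 4262403 to 58290770 counts in the cold set (76 libraries) and from 29545458 to 62880248 in the warm set (30 libraries). The iBAT libraries carried the brown adipocyte markers at a summed level of 8083 to 12920 CPM at 22 °C, against 140.5 to 197 CPM in inguinal subcutaneous fat (ingSAT). The second brain library at 22 °C stood apart, with a median correlation of 0.788 to the other brain libraries. Hepatocyte markers reached 64349 CPM in the brain libraries at 22 °C, where the lowest sum was 733 CPM. Perigonadal visceral fat (pgVAT) varied in its content of epididymis markers, from 4.36 to 24080 CPM among the 3 libraries at 10 °C. Exons of 5 regulators share bases with a gene annotated on the opposite strand, namely Ebf2 with Gm10860 (424 bases), Cebpb with Tmem189 (312), Prdm16 with B230104I21Rik (109), Esrra with Trmt112 (73) and Cebpa with Gm45091 (51). The strand setting of the counting is not given in the sources used here, so reads from these stretches may be shared. As these are whole tissues, fewer cells of a type and less RNA per cell cannot be told apart.

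At 22 °C, the first question was where the 10 regulators are expressed. Levels were compared per kilobase of exon (RPKM, scaled by TMM) among the 8 tissues of the largest table, with 3 libraries each. All 10 genes had their highest mean in iBAT, and 8 of them still did when libraries were scaled by their totals alone. Without the second brain library, described above, Esrrg was no longer highest in iBAT (log2 difference from brain −0.13, adjusted p = 0.694). The difference from the next tissue passed an adjusted p of 0.05 for 6 genes, and for 8 when the second brain library was left out. The shares of all genes that are highest in iBAT or pass this step were not computed, so these counts are a description only. Adjusted p-values are from the quasi-likelihood test of edgeR with Benjamini-Hochberg adjustment over all genes tested. Against ingSAT, 9 of the 10 genes were called higher in iBAT, where 43.6% of all genes tested were called in either direction. Against pgVAT it was again 9 of 10, with 47.9% of all genes called in either direction. The share called higher in iBAT is not given here. A call here needs a fold above 1.5 and an unadjusted p no higher than 0.05, the limits of the study. Cebpa was the gene that was not called in either comparison. Without the second brain library it was called against pgVAT (log2 difference 0.62, adjusted p = 0.00939) but not against ingSAT (0.32, adjusted p = 0.173).

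**Figure D1:**
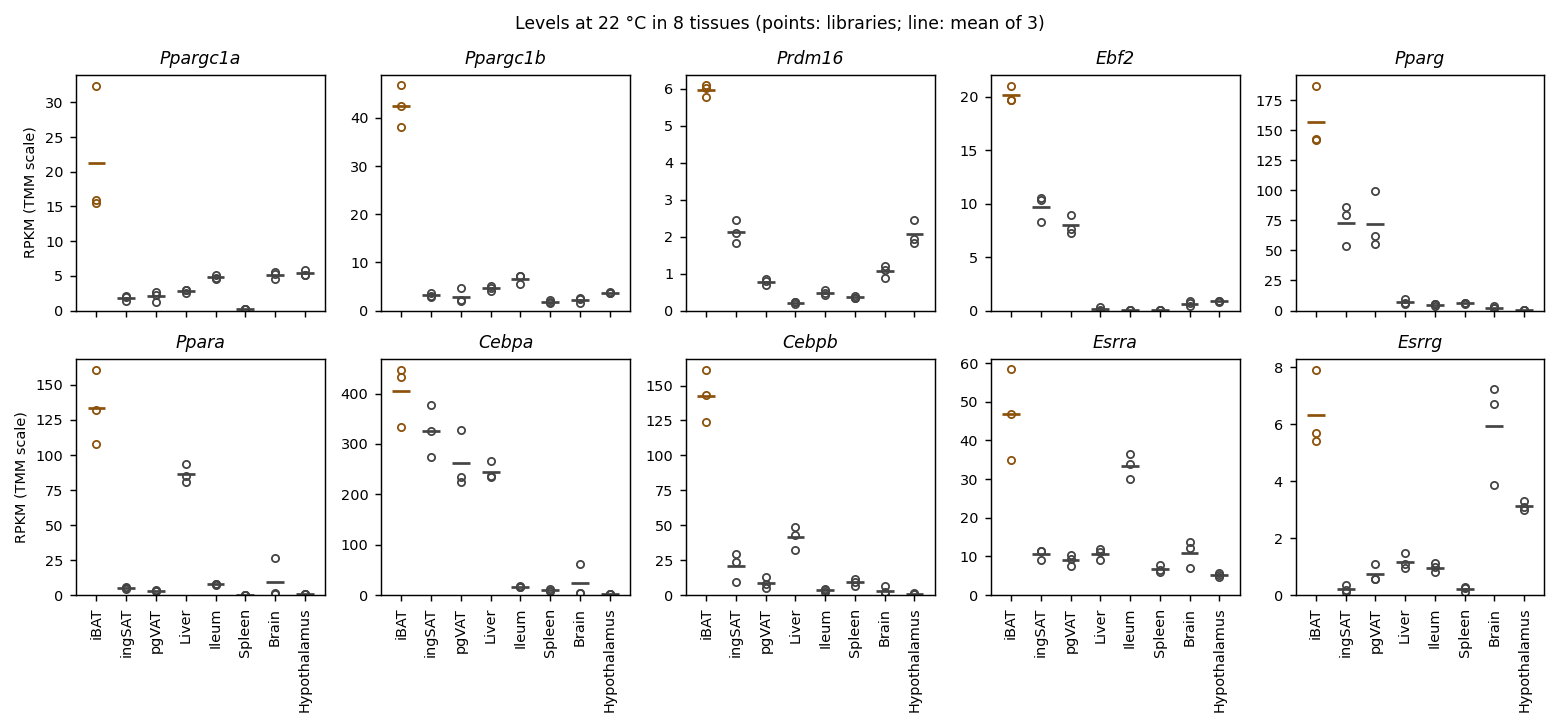
Expression of the 10 regulators at 22 °C in 8 tissues, in RPKM on a linear axis that starts at 0; points are libraries (iBAT brown, the others grey) and lines are means of 3. The mean is highest in iBAT in each panel, while Cebpa in the other fat depots, Ppara in liver, Esrra in ileum and Esrrg in brain come close to it.

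Among the coactivators, Ppargc1a (ENSMUSG00000029167, chr5:51454250-51567726, minus strand) stood at 15.6, 16 and 32.4 RPKM in iBAT. The third library stood well above the others, and each was above every library of the next tissue. Hypothalamus (5.38 ± 0.360, SD, n = 3), brain (5.10 ± 0.564) and ileum (4.77 ± 0.257) followed, and neither step between neighbours in this order passed the test (adjusted p = 0.839 and 0.738), although the libraries of hypothalamus and ileum did not overlap. Ppargc1a was lower in liver (2.83 RPKM), pgVAT (2.08) and ingSAT (1.80), and lowest in spleen (0.227). Ppargc1b (ENSMUSG00000033871) reached 42.5 ± 4.30 RPKM in iBAT and 6.61 ± 0.996 in ileum, the next tissue (adjusted p = 1.13e-08). From liver (4.59 RPKM) down to spleen (1.87 RPKM), no step between neighbouring tissues passed the test for Ppargc1b. Compared with ingSAT, iBAT held 11.8-fold more Ppargc1a and 13.4-fold more Ppargc1b.

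The 2 genes of brown identity were also expressed in white fat. Prdm16 (ENSMUSG00000039410, chr4:154316125-154636873, minus strand), whose product keeps brown fat precursors from other fates, stood at 5.97 ± 0.163 RPKM in iBAT. It was 2.12 ± 0.317 RPKM in ingSAT and 2.08 ± 0.332 in hypothalamus, which did not differ (adjusted p = 0.892). In pgVAT the Prdm16 level was 0.783 ± 0.0879 RPKM, 7.69-fold below iBAT. Ebf2 (ENSMUSG00000022053, chr14:67233292-67430918, plus strand), an early factor of the brown lineage, fell off steeply outside fat. It stood at 20.1 ± 0.757 RPKM in iBAT, 9.70 ± 1.24 in ingSAT and 7.96 ± 0.883 in pgVAT, and no other tissue exceeded a mean of 0.896.

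The PPAR and C/EBP factors separated into fat genes and genes shared with liver. Pparg (ENSMUSG00000000440, chr6:115360951-115490399, plus strand), the master regulator of adipogenesis, reached 157 ± 25.9 RPKM in iBAT. It was at 73.0 ± 17.3 RPKM in ingSAT and 72.3 ± 23.6 RPKM in pgVAT, whose ranges overlapped. Outside fat its highest mean was 6.91 RPKM, in liver. Ppara (ENSMUSG00000022383, chr15:85734983-85802819, plus strand) stood at 108, 132 and 160.5 RPKM in iBAT and at 80.5, 85.0 and 93.3 RPKM in liver. These ranges did not overlap, yet the difference was not called in the fit with all libraries (adjusted p = 0.482) and passed without the second brain library (adjusted p = 0.00256). In ingSAT and pgVAT Ppara was at 5.08 and 3.06 RPKM, 26.2-fold and 43.8-fold below iBAT. Cebpa (ENSMUSG00000034957, chr7:35119293-35121928, plus strand) had the highest level of the 10 genes, at 405 ± 61.2 RPKM in iBAT. It was 325 ± 51.5 in ingSAT, 263 ± 57.3 in pgVAT and 245 ± 17.3 in liver, and no neighbours in this order differed. Cebpb (ENSMUSG00000056501, chr2:167688915-167690418, plus strand), which responds early in adipogenesis and to cAMP, was at 143 ± 18.5 RPKM in iBAT and 41.3 ± 8.43 in liver, its next tissue (adjusted p = 0.00305). In ingSAT it ran from 9.25 to 29.2 RPKM.

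The receptors of the ERR family had other partners in this order. Esrra (ENSMUSG00000024955, chr19:6910977-6921813, minus strand) stood at 46.7 ± 11.7 RPKM in iBAT and 33.4 ± 3.25 in ileum, whose ranges overlapped (adjusted p = 0.0523, and 0.0133 without the second brain library). The remaining 6 tissues lay between 5.22 and 10.9 RPKM. Esrrg (ENSMUSG00000026610, chr1:187608791-188214885, plus strand) was at 5.93 ± 1.82 RPKM in brain and 6.34 ± 1.36 in iBAT, with overlapping ranges (adjusted p = 0.803). Without the second brain library the brain range was 6.71 to 7.23 RPKM. In ingSAT Esrrg was near the limit of detection, at 8, 19 and 37 counts, and 27.5-fold below iBAT.

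The next comparison asked how prolonged cold changed these genes in iBAT. Of the 10 regulators, 5 fell and none rose: the coactivators Ppargc1a and Ppargc1b, the lineage factor Ebf2, and the receptors and factors Ppara and Cebpa. Among all 12791 genes tested, 13.2% were called and 7.24% were called lower. For 4 of the 5 genes, all but Ppargc1a, the adjusted p was also below 0.05, as for 11.3% of all genes. The median log2 fold change of the 10 genes was −0.55, against −0.024 over all genes. All values from here on are CPM on the TMM scale of the comparison concerned.

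Ppara fell most. Its CPM was 328, 402 and 478 at 22 °C and 86.1, 232 and 189.7 at 10 °C, a log2 fold change of −1.25 (SE 0.317, adjusted p = 0.0360). The groups did not overlap, and the first library at 10 °C was the lowest by a wide margin. Ppargc1a stood at 81.4, 83.5 and 166 CPM at 22 °C and at 49.8, 54.2 and 72.1 CPM at 10 °C, a log2 fold change of −0.91 (SE 0.274, adjusted p = 0.0646). Again each cold library lay below each control, but the third control stood well above the others. Without that library the log2 fold change was −0.49 and Ppargc1a was not called.

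Cebpa was at 699, 906 and 913 CPM at 22 °C and at 410.5, 556 and 486 CPM at 10 °C, which gave a log2 fold change of −0.79 (SE 0.169, adjusted p = 0.0190). Ebf2 showed the tightest groups, with 108, 115 and 106 CPM against 66.6, 73.7 and 73.4 CPM, and its log2 fold change was −0.63 (SE 0.103, adjusted p = 0.00699). Ppargc1b moved from 121, 135 and 145 CPM to 66.2, 97.0 and 96.3 CPM, with a log2 fold change of −0.63 (SE 0.160, adjusted p = 0.0373). In all 3 genes the groups were apart, although Ebf2 and Ppargc1b lay just past the fold limit. Without the first library at 10 °C, Ebf2 (−0.56) and Ppargc1b (−0.45) came short of it, as did Ppargc1b without the third control (−0.56). The count of called regulators was 3 without the third control at 22 °C or without the first library at 10 °C.

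The other 5 regulators were not called in cold-exposed iBAT. Pparg was at 365 ± 55.1 CPM at 22 °C and 371 ± 48.7 CPM at 10 °C (SD, n = 3 each; log2 fold change 0.022, SE 0.156). Prdm16 was at 43.8 ± 1.16 and 39.4 ± 1.75 CPM, with each cold library below each control but a log2 fold change of only −0.15. Cebpb was at 148, 171 and 188 CPM at 22 °C and at 99.7, 150.5 and 115 CPM at 10 °C, overlapping groups with a log2 fold change of −0.47 (adjusted p = 0.101). The 2 receptors of the ERR family had log2 fold changes of 0.32 (Esrra) and −0.24 (Esrrg). Skeletal muscle markers moved with this comparison, summing to 6275 to 8961 CPM at 22 °C and 2447 to 5106 CPM at 10 °C, with 5 of 7 genes lower in each cold library. Brown adipocyte markers summed to 8083 to 12920 and 14288 to 18009 CPM, with 4 of 6 higher throughout, epididymis markers to at most 0.0417 and 40.8 CPM, and oligodendrocyte markers to 55.7 to 67.9 and 72.9 to 76.2 CPM. The general adipocyte markers summed to 14657 to 16205 CPM at 22 °C and 15412 to 16623 CPM at 10 °C. The part of these markers in the result was not tested.

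**Figure D2:**
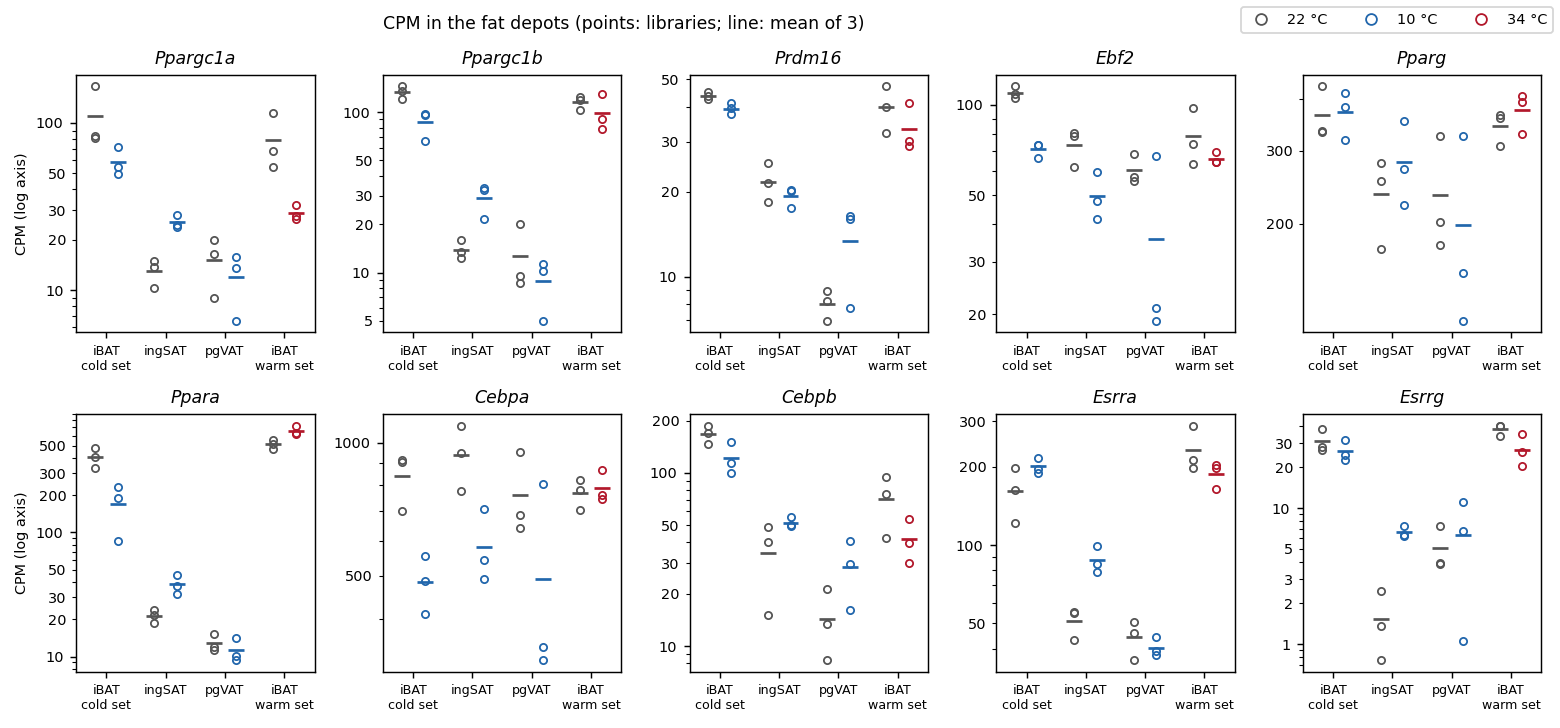
CPM of the 10 regulators in fat depots on a logarithmic axis, with libraries as points (grey 22 °C, blue 10 °C, red 34 °C) and the mean of 3 as a line; the cold and warm sets were scaled separately. Ppara, Ppargc1a and Ppargc1b sit lower at 10 °C in iBAT and higher at 10 °C in ingSAT, with no overlap in either depot.

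In ingSAT, the white depot in which cold recruits brown-like (beige) adipocytes, 5 regulators rose and 1 fell at 10 °C. Among all 13982 genes tested, 16.3% were called, 7.20% higher and 9.14% lower. The genes that rose were both PGC-1 coactivators, Ppara and both ERR receptors, each with an adjusted p below 0.05 (7.51% of all genes), and the gene that fell was Cebpa. The median log2 fold change of the 10 genes was 0.68, against −0.0095 over all genes.

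Esrrg showed the largest ratio, from 0.764, 1.35 and 2.44 CPM at 22 °C to 6.21, 6.33 and 7.39 CPM at 10 °C (log2 fold change 2.10, SE 0.409, adjusted p = 0.0304). Ppargc1a was at 10.3, 13.7 and 14.9 CPM in the controls and at 23.8, 24.5 and 28.2 CPM in the cold (0.97, SE 0.176, adjusted p = 0.0253). Ppargc1b was at 13.4, 15.9 and 12.3 CPM and at 21.4, 33.7 and 32.6 CPM (1.08, SE 0.210, adjusted p = 0.0308). For each of these 3 genes the lowest cold library was above the highest control.

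Ppara was at 21.8, 23.6 and 18.7 CPM at 22 °C and at 32, 37.1 and 45.8 CPM at 10 °C, a log2 fold change of 0.84 (SE 0.169, adjusted p = 0.0328). Esrra was at 54.7, 55.5 and 43.0 CPM and at 99.2, 79.1 and 84.5 CPM, a log2 fold change of 0.78 (SE 0.148, adjusted p = 0.0283). Cebpa went the other way, from 945, 1092 and 778 CPM to 706, 492 and 543 CPM (−0.69, SE 0.204, adjusted p = 0.0843). Its groups did not overlap, but the call ended without the second control (−0.57) or without the second (−0.55) or the third (−0.62) cold library. Ebf2 was lower in each cold library (73.6 ± 10.2 and 49.7 ± 9.16 CPM) with a log2 fold change of −0.57, just inside the fold limit. Prdm16 (−0.16), Pparg (0.26) and Cebpb (0.59, adjusted p = 0.349) were not called.

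Brown adipocyte markers in ingSAT summed to 140.5 to 197 CPM at 22 °C and 2341 to 3009 CPM at 10 °C, with 6 of 6 genes higher throughout. Skeletal muscle markers ran from 1162 to 2939 CPM at 22 °C and from 27.3 to 1761 CPM at 10 °C, with 1 of 7 lower throughout. Adipocyte markers summed to 18986 to 26934 and 25110 to 28889 CPM, and macrophage markers to 528 to 1029 and 394 to 621 CPM. Hepatocyte markers (1626 to 4438 and 1010.1 to 1329 CPM) and neutrophil precursor markers (22.9 to 44.1 and 5.90 to 11.1 CPM) were lower in each cold library by their sum, with 1 of 5 and 1 of 6 genes lower throughout. The part of these markers in the changes of the regulators was not tested.

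Whether the 2 depots differed in their response was then tested as an interaction in a single fit of their 12 libraries. The difference passed an adjusted p of 0.05 for 4 of the 10 genes, with 3.55% of all genes passing. These were Ppargc1a (difference of log2 fold changes, iBAT minus ingSAT, −1.90, SE 0.376, adjusted p = 0.0219), Ppargc1b (−1.72, SE 0.272, adjusted p = 0.00878), Ppara (−2.11, SE 0.421, adjusted p = 0.0225) and Esrrg (−2.33, SE 0.393, adjusted p = 0.0113). The first 3 of them were called in opposite directions in the 2 depots. The count was 2 without the third ingSAT library at 10 °C or without the first at 22 °C. For Cebpa the difference was −0.12 (SE 0.275, adjusted p = 0.832) and for Ebf2 −0.077 (SE 0.203, adjusted p = 0.853), so the estimates in the 2 depots lay closer than their errors. Esrra (−0.48, adjusted p = 0.286) and Cebpb (−1.08, adjusted p = 0.190) did not pass.

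**Figure D3:**
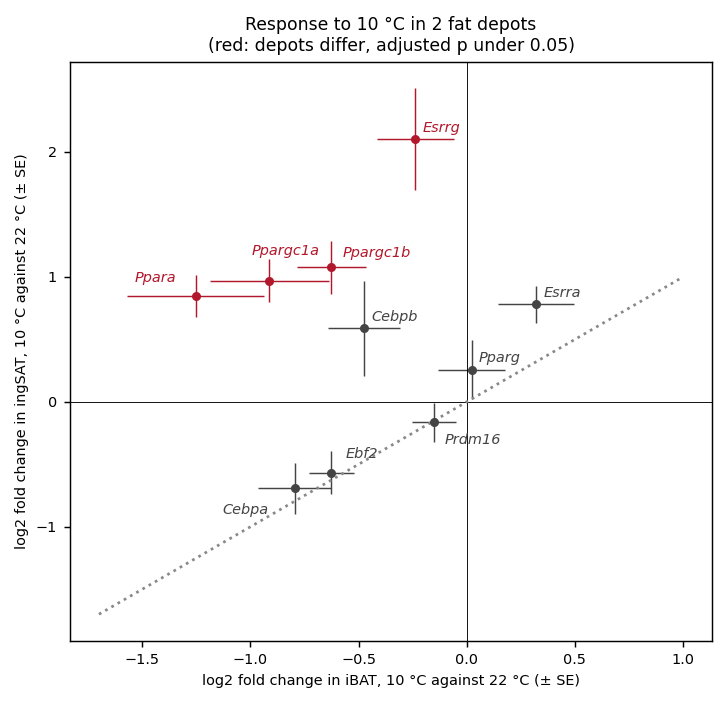
Log2 fold change at 10 °C against 22 °C in iBAT (x axis) and ingSAT (y axis) for the 10 regulators, with bars of 1 SE and a dotted line of equal response; red marks the 4 genes whose depots differed. Ppara, Ppargc1a and Ppargc1b lie at the upper left (lower in iBAT, higher in ingSAT), while Cebpa, Ebf2 and Prdm16 lie on the line.

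In pgVAT none of the 10 regulators was called at 10 °C, where 7.94% of all genes were, and no regulator had an unadjusted p of 0.05 or less in edgeR (8.12% of all genes did). With DESeq2 1 gene (Cebpb, log2 fold change 1.0) was called. The 3 cold libraries differed widely among themselves. Ebf2 stood at 57.3, 68.8 and 55.5 CPM at 22 °C and at 19, 67.3 and 21 CPM at 10 °C. Cebpa showed the same pattern, with 642, 687 and 954 CPM against 345, 806 and 323 CPM, the second cold library lying within the range of the controls. Without that library 3 genes were called, namely Prdm16 (log2 fold change 1.02), Ebf2 (−1.61) and Cebpa (−1.20). Epididymis markers in pgVAT spanned 730 to 2890 CPM at 22 °C and 4.36 to 24080 CPM at 10 °C. The controls also varied among themselves, with brown adipocyte markers at 9.35 to 473 CPM, against 33.8 to 62.0 CPM at 10 °C. Totals of the controls were 23789328, 7607873 and 4262403 counts. The part of these markers and of depth in these values was not tested. No regulator differed in response between pgVAT and iBAT (0.0835% of all genes did) or between pgVAT and ingSAT (0% of all genes) at an adjusted p of 0.05. At an unadjusted p below 0.05, 3 genes differed against iBAT (12.5% of all genes) and 5 against ingSAT (10.4%), and DESeq2 called none. Without the second cold pgVAT library the counts were 2 and 1.

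At 34 °C, where iBAT is little needed for heat, 2 of the 10 regulators fell in iBAT and none rose, with 19.4% of all genes called and 7.19% called lower. Ppargc1a fell from 54.6, 115 and 68.2 CPM at 22 °C to 27.9, 26.8 and 32.5 CPM at 34 °C, a log2 fold change of −1.45 (SE 0.260, adjusted p = 0.00821). The 3 warm libraries were close together and all below the controls. Cebpb was at 94.1, 75.2 and 42.3 CPM and at 39.4, 54.2 and 30.2 CPM (−0.77, SE 0.312, adjusted p = 0.0995). Its groups overlapped, and its call ended in 4 of the 6 fits that left out a library. Ppara was higher in each warm library (515, 474 and 551 against 621, 635 and 725 CPM) with an adjusted p of 0.0410, but its log2 fold change of 0.36 was inside the fold limit. It exceeded the limit, at 0.63, when libraries were scaled by their totals alone, a scaling that moved the median of all genes from 0.025 to 0.30.

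The remaining regulators of warm iBAT were not called. Cebpa (769.6 ± 59.1 and 790.4 ± 67.0 CPM) and Pparg (344 ± 32 and 376 ± 40.7 CPM) had overlapping ranges. Esrrg was at 38.2 ± 3.66 and 26.9 ± 7.32 CPM (log2 fold change −0.51, adjusted p = 0.0810), and Ppargc1b, Prdm16, Ebf2 and Esrra had log2 fold changes from −0.31 to −0.22. Brown adipocyte markers summed to 10694 to 14420 CPM at 22 °C and 5871 to 7254 CPM at 34 °C, macrophage markers to 42.6 to 62.7 and 75.3 to 102 CPM, and hepatocyte markers to 102 to 125 and 178 to 416 CPM. General adipocyte markers summed to 15969.8 to 18189 CPM at 22 °C and 13193 to 15958 CPM at 34 °C. Muscle markers varied from 2.90 to 4702 CPM among the controls alone. The part of these markers was not tested.

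Ppargc1a was therefore lower than its controls at both temperatures in iBAT, and the difference between the 2 responses was 0.52 (log2 fold change at 10 °C minus that at 34 °C, SE 0.420, adjusted p = 0.373). The 2 experiments had separate controls, kits and sequencing sites. Their responses differed for 2 of the 10 regulators, where 30.3% of all genes differed: Ppara (−1.64, SE 0.379, adjusted p = 0.00737) and Cebpa (−0.86, SE 0.196, adjusted p = 0.00686). Both fell at 10 °C and were not called at 34 °C.

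**Figure D4:**
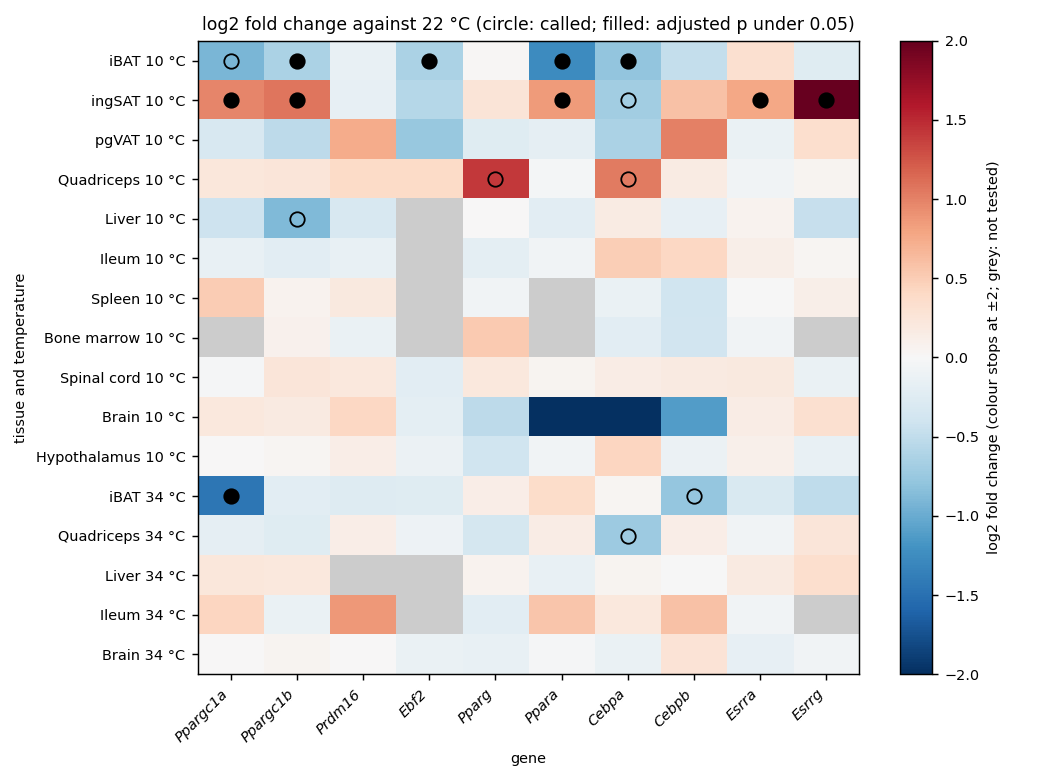
Log2 fold change against 22 °C for the 10 regulators (columns) in 16 comparisons (rows), blue lower and red higher, with circles for calls, filled where the adjusted p is under 0.05, and grey for genes too low to test. Calls gather in iBAT and ingSAT, and the dark cells for Ppara (−3.45) and Cebpa (−2.74) in brain at 10 °C lie beyond the colour scale, carry no call and rest on 1 control library.

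Outside iBAT and ingSAT there were 4 calls, none with an adjusted p below 0.05. In all, 148 tests of a regulator gave 17 calls, 7 higher and 10 lower, and 10 of the 16 comparisons had none. This is a tally over comparisons whose share of all genes called ran from 0.193% (brain at 34 °C) to 19.4% (iBAT at 34 °C). In quadriceps at 10 °C, 2 genes rose, where 3.83% of all genes were called and 3.09% were called higher. Pparg went from 2.23, 2.65 and 3.42 CPM to 8.42, 8.97 and 4.78 CPM (log2 fold change 1.41, SE 0.277, adjusted p = 0.193). Cebpa went from 8.56, 10.8 and 7.98 CPM to 20.7, 24 and 11.3 CPM (1.03, SE 0.269, adjusted p = 0.345). In both genes the third cold library was nearest the controls, and general adipocyte markers summed to 233 to 351 CPM at 22 °C and 320 to 899 CPM at 10 °C, with 1 of 7 higher throughout. Brown adipocyte markers summed to 476 to 685 and 496 to 720 CPM, with 3 of 6 higher and 1 lower throughout. In the gene lists described further on, 6 of 10 adipocyte targets and 4 of 10 brown adipocyte targets were called higher, and 0 lower. At an adjusted p below 0.05, 0 and 1 genes of these 2 lists passed. Skeletal muscle markers summed to 192980 to 283172 and 131141 to 206111 CPM, with 4 of 7 lower throughout, and epididymis markers to at most 0.0951 and 199.8 CPM. Against the other 3 quadriceps controls, or all 6, Pparg was still called (log2 fold change 0.67 and 0.99) and Cebpa was not (0.21 and 0.57). The part of these markers and targets was not tested.

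In quadriceps at 34 °C, Cebpa was called lower, with 1.21% of all genes called and 0.919% called lower. Its CPM of 22, 16.2 and 10.5 at 22 °C overlapped that of 11.7, 6.41 and 11.5 at 34 °C (−0.72, SE 0.298, adjusted p = 1.0). The sign turned to 0.084 against the other 3 controls. Adipocyte markers summed to 296 to 648 CPM in the controls and 178 to 385 CPM at 34 °C. In liver at 10 °C, Ppargc1b fell from 10.6, 11.1 and 8.78 CPM to 6.07, 5.67 and 4.90 CPM (−0.88, SE 0.141, adjusted p = 0.0941), and 3.28% of all genes were called and 2.54% were called lower. Hepatocyte markers summed to 60834 to 67659 CPM at 22 °C and 84993 to 88291 CPM at 10 °C, with 3 of 5 higher throughout, and their part was not tested. The Ppargc1b call held in each fit that left out a library, while Ppargc1a in liver, lower in each cold library, had a log2 fold change of −0.41 (adjusted p = 0.163).

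No regulator was called by edgeR in the other tissues. At 10 °C the background of called genes was 2.71% in ileum, 2.68% in spleen, 1.29% in bone marrow, 0.271% in spinal cord, 2.72% in brain and 0.578% in hypothalamus. Regulators with an unadjusted p no higher than 0.05 numbered 1 in ileum (17.1% of all genes), 1 in spleen (10.0%), 3 in bone marrow (33%), 2 in spinal cord (5.79%), 1 in brain (3.88%) and 1 in hypothalamus (6.18%). At 34 °C the background was 3.38% in liver, 2.83% in ileum and 0.193% in brain, and 0 regulators had such a p in any of them (11.2%, 7.76% and 2.64% of all genes did). DESeq2 called 0 regulators in these 9 comparisons, and the exact test of edgeR called 0 except for 2 in brain at 10 °C. Several genes were too low to test, namely Ebf2 in liver, ileum, spleen and bone marrow, Ppara in spleen and bone marrow, Ppargc1a and Esrrg in bone marrow, Esrrg in ileum at 34 °C and Prdm16 in liver at 34 °C.

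In bone marrow, with 6 single mice a group, shifts of 2 regulators passed an adjusted p of 0.05 (19% of all genes did) without reaching the fold limit. Pparg was at 9.07 ± 2.38 CPM at 22 °C and 13 ± 1.54 CPM at 10 °C (SD, n = 6; log2 fold change 0.52, adjusted p = 0.0243). Cebpa, which myeloid cells also need, was at 62.8 ± 3.33 and 54.4 ± 4.63 CPM (−0.21, adjusted p = 0.0217). In both genes the ranges of the groups overlapped. Neutrophil precursor markers summed to 18483 to 25986 CPM at 22 °C and 17259.5 to 18051 CPM at 10 °C, with 3 of 6 lower throughout, and B cell markers to 386 to 540.5 and 539 to 623 CPM. Their part in these shifts was not tested. In spinal cord Esrrg was the highest of the 10 genes by CPM, which does not allow for gene length, at 86.8 ± 1.89 CPM at 22 °C and 78.8 ± 15.1 CPM at 10 °C (SD, n = 5), and all ranges here overlapped between temperatures. Ppargc1a was at 65.9 ± 2.86 and 64.8 ± 5.90 CPM, and Esrra at 61.3 ± 2.77 and 70.4 ± 18.8 CPM. In ileum Cebpa was higher in each cold library (45.4 ± 5.30 and 63.7 ± 2.54 CPM) with a log2 fold change of 0.49, inside the fold limit (adjusted p = 0.0971). Enterocyte markers in ileum summed to 5731 to 6086 CPM at 22 °C and 9309.7 to 9566 CPM at 10 °C, with 2 of 5 higher throughout, and their part was not tested.

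Brain at 10 °C showed the largest fitted ratios of all, and they came from a single library. Ppara was at 3.87, 129 and 4.48 CPM at 22 °C and at 4.17 ± 0.460 CPM at 10 °C. Cebpa was at 8.67, 205 and 11.6 CPM at 22 °C and at 11.2 ± 0.964 CPM at 10 °C. The high value was in each case that of the second control, which is also the library with hepatocyte markers at 64349 CPM. Without it the log2 fold changes were −0.0067 for Ppara and 0.12 for Cebpa.

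Genes that work with the regulators were grouped into 9 lists, which were also chosen with earlier results of these data known. Their counts are to be read against the share of all genes called. That share was 13.2% in iBAT at 10 °C (7.24% lower), 7.20% higher and 9.14% lower in ingSAT at 10 °C, and 19.4% in iBAT at 34 °C (7.19% lower), so that single calls in a list lie near it. In iBAT at 10 °C, the brown adipocyte targets had 4 of 10 genes higher and 1 lower, with a median log2 fold change of 0.19 (−0.024 over all genes). Elovl3, a fatty acid elongase, rose by 3.50 on the log2 scale, the respiratory chain subunit gene Cox7a1 by 0.60 and the proton channel gene Otop1 by 0.59. Dio2, the deiodinase that activates thyroid hormone, fell by 0.97 (adjusted p = 0.110), with controls at 276 ± 172 CPM (SD). Of the PPARA targets, 2 of 7 fell, among them Vnn1 (−0.89). None of the 10 ERR targets, 10 coactivators or 7 mitochondrial biogenesis factors was called, the ERR targets having a median of 0.24. Among the partner receptors Esrrb (1.08) rose, and Nr4a1 (−2.57), an immediate early gene, and Rxrg (−0.65) fell. Klf11 (−1.09) among the 12 other activators, the corepressor gene Tle3 (−0.78) among 12 opposing factors and Pck1 (−1.26) among the 10 adipocyte targets were the single calls of their lists.

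In ingSAT at 10 °C, 10 of 10 brown adipocyte targets and 10 of 10 ERR targets rose, with medians of 3.12 and 1.06 (−0.0095 over all genes). Fabp3, a fatty acid binding protein gene, rose by 4.43, and the respiratory chain genes Cox7a1 and Cox8b by 3.96 and 2.6. Among the ERR targets, cytochrome c (Cycs) rose by 2.03, the citrate cycle gene Idh3a by 1.41 and Sdhb by 1.02. Perm1, a coactivator of ERR receptors, rose by 1.12 as the only one of 10 coactivators. The mitochondrial transcription factor genes Tfb2m (0.97) and Tfam (0.61) were the 2 of 7 biogenesis factors that rose. The PPARA targets were split, with 2 of 7 higher, namely Pdk4 (1.76) and Acadl (1.07), 2 lower, among them Cpt1a (−1.19), and the other 3 not called.

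Other genes of ingSAT at 10 °C moved less uniformly. Of the 10 adipocyte targets of PPARG and CEBPA, Fabp4 (0.71) rose while Pck1 (−1.32), the glyceroneogenic enzyme gene, and Lipe (−0.62), the hormone-sensitive lipase gene, fell. The partner nuclear receptors had 2 of 8 genes lower (Rxra −0.72, Thra −0.63), the other activators 2 of 12 lower (Klf11 −0.90, Lhx8 −0.92) and the corepressors and opposing factors 2 of 12 lower (among them Zfp423, −1.02). Zfp423 is known to hold white adipocytes back from a brown identity. Of the genes named in this paragraph, Fabp4, Lipe, Rxra and Lhx8 had an adjusted p above 0.05.

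In iBAT at 34 °C, 5 of 10 brown adipocyte targets fell and none rose (median −0.50, against 0.025 over all genes), among them Ucp1 (−2.26), Elovl3 (−5.78) and Otop1 (−2.12). Of the 7 PPARA targets 3 fell and 1 rose, with a median of −0.66. The peroxisomal enzyme gene Ehhadh (−2.85) and the kinase gene Pdk4 (−0.66) were among those that fell, while Vnn1 rose by 1.27 on the log2 scale. In the other lists, 2 of 9 partner receptors were lower (Nr1h3 −0.70, Rxrg −0.67), as were 1 of 7 biogenesis factors (Tfb2m −0.74), 1 of 10 ERR targets (Pdha1 −0.61) and 1 of 10 adipocyte targets (Pck1 −0.69). At an adjusted p below 0.05, with no limit on the fold, 3 of 7 biogenesis factors, 4 of 10 ERR targets, 4 of 7 PPARA targets and 6 of 10 brown adipocyte targets passed. The share of all genes passing at this limit is not given here, so no excess can be read from these counts. Among the other activators Ebf1 (0.78) and Lhx8 (1.24) rose and Irf4 (−0.70) fell, and among the opposing factors Zfp521 (0.76) rose and Zfp423 (−0.60) fell. For Irf4, Zfp521 and Zfp423 the adjusted p was above 0.05, and the groups of Irf4 and Zfp423 overlapped. None of the 9 coactivators tested was called.

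As a description, the genes most like each regulator were taken by Pearson's correlation of mean log2 CPM over the 16 tissue and temperature groups of the largest table. These groups share library preparation and, within a tissue, most of their expression, so the values mainly follow tissue. Closest were Lpl (r = 0.978) for Pparg, Car3 (0.983) for Cebpa, Ankef1 (0.982) for Ebf2 and Hddc3 (0.959) for Prdm16. The citrate cycle gene Ogdh (0.944) was closest to Ppargc1b, the peroxisomal transporter gene Abcd3 (0.953) to Ppara, and Cmtm4 (0.912) to Ppargc1a. Tysnd1 (0.979) was closest to Cebpb, Myo5c (0.947) to Esrra and Guk1 (0.953) to Esrrg. Between the regulators themselves, Ppargc1a was most like Esrrg (r = 0.847) and Ppargc1b most like Esrra (r = 0.797).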

How the data were processed

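RNA was sequenced from 11 mouse tissues in 106 libraries. The deposited values are raw read counts per gene. Per the labels and the study's methods, the authors aligned reads to mm10 with STAR and counted them with HTSeq. The submitters' processing notes name STAR 2.5.3a, HTSeq 0.6p1 and Picard 1.141, while the study's methods name other versions of the first 2. The 8 tissues of the largest table were prepared with NEBNext Ultra kits in Göttingen, and the others and the warm set were sequenced in Geneva. Stranded TruSeq kits were used for bone marrow, spinal cord and the warm set, and for quadriceps at 10 °C per the labels, where the study's methods imply NEBNext. Of 21647 Ensembl identifiers in the largest table, 21583 were matched to a symbol through GENCODE M21. Kilobases of exon are from the same annotation.

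Each group at 10 or 34 °C was compared with its own libraries at 22 °C by the edgeR quasi-likelihood test (edgeR 4.0.16, R 4.3.3), with TMM scaling and genes of an average log2 CPM above 0. Calls needed a fold above 1.5 and an unadjusted p no higher than 0.05, as in the study, which used the exact test of edgeR. Benjamini-Hochberg adjusted p-values are over all genes tested. Differences in response were interaction terms, called at an adjusted p below 0.05. Levels at 22 °C were fitted over 24 libraries and 15845 genes. DESeq2 1.42.0 and other settings were alternatives. Fold changes are on the log2 scale. A prior count of 2 was used only for the log2 CPM behind the correlations between genes and between libraries. The steps were tested on simulated data.

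For quadriceps, the 3 controls whose column prefix matches that of the treated libraries were used, so that each temperature had its own 3. The second brain library at 22 °C was kept in the main fits. The authors' own mean counts for brain at 22 °C did not include it. They matched the mean of replicates 1 and 3 in 1960 of 1960 genes compared, and the mean of all 3 in 0. The members and the gene lists were chosen with earlier results of these data known. Named genes are the 10 regulators, up to 3 called genes of each list in each direction with the smallest p (iBAT and ingSAT at 10 °C, iBAT at 34 °C), and the genes most like each regulator. A few called genes of the lists count in the totals but are not reported here by name. Nothing in the labels says that pools of one group came from separate experiments, so p-values measure the spread between these libraries. Totals ran from 4262403 to 62880248 counts. Columns of the authors' mean values were not used in tests.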

Additional observations from a re-analysis of the deposited data

Results flagged for a closer look

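The response to 10 °C differed between iBAT and ingSAT, by an interaction term in edgeR, for 4 of the 10 regulators and 3.55% of all genes. The difference of log2 fold changes (iBAT minus ingSAT) was −1.90 for Ppargc1a, −1.72 for Ppargc1b, −2.11 for Ppara and −2.33 for Esrrg. The first 3 fell in iBAT and rose in ingSAT in all 3 libraries of each group, whereas Esrrg rose in ingSAT and was not called in iBAT. Without the third iBAT control, neither Ppargc1a (−0.49) nor Ppargc1b (−0.56) was called in iBAT. Ppargc1b was also not called there without the first cold library (−0.45). The count of 4 was 2 without the third ingSAT library at 10 °C or without the first at 22 °C.

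The responses of iBAT to 10 °C and to 34 °C differed for Ppara (−1.64) and Cebpa (−0.86), 2 of the 10 regulators. Among all genes tested, 30.3% differed in this test, so the count of regulators is not above that share. The 2 experiments differed in supplier of mice, library kit and sequencing site, and these cannot be told apart from the temperature.

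Within groups, 1 library was far from the others in 2 of the 40 groups of 4 to 10 libraries examined, and chance alone flags about 1 group in 20. Ppara in bone marrow at 22 °C was at 0.339 CPM in the fourth library and at 0 to 0.124 CPM in the others, which is too low to read. Esrra in spinal cord at 10 °C was at 103.9 CPM in the fourth library and at 59.9 to 65.1 CPM in the others. No call rested on either library.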

How the results depend on the processing

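Counts of called regulators stayed within 1.5 times the reported count under every alternative except the following. In pgVAT the count of 0 became 1 with DESeq2, 1 with no filter beyond 1 count and 2 with the replicate block, and in brain at 10 °C it became 2 with the exact test of edgeR. With adjusted p below 0.05 in place of the limits of the study, the count was 0 in quadriceps at 10 °C and at 34 °C and 0 in liver at 10 °C, and 2 in bone marrow. Against the other 3 quadriceps controls or all 6, it was 1 at 10 °C and 0 at 34 °C, where Cebpa turned from −0.72 to 0.084 with the other 3. With libraries scaled by their totals alone, it was 0 in quadriceps at 34 °C, and 5 regulators differed between the iBAT responses to 10 and 34 °C. The causes were not tested.

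That scaling moved the median log2 fold change of all genes to −0.18 in iBAT at 10 °C, 0.25 in quadriceps at 10 °C, 0.10 in brain at 10 °C and 0.30 in iBAT at 34 °C. The share of calls that were higher went from 45.3% to 24.6% in iBAT at 10 °C, 56.2% to 40.8% in pgVAT, 80.6% to 95.6% in quadriceps at 10 °C, 22.5% to 12.1% in liver at 10 °C and 53.3% to 38.7% in ileum at 10 °C. At 34 °C it went from 62.9% to 88.3% in iBAT, 23.9% to 13.5% in quadriceps and 52.4% to 36.6% in liver.

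Without 1 library in turn, the count ran from 3 to 6 in iBAT and 5 to 7 in ingSAT at 10 °C, 0 to 3 in pgVAT, 2 to 3 in quadriceps at 10 °C, 1 in liver at 10 °C, 0 to 1 in spleen (without the second control) and 0 to 2 in brain at 10 °C (without the first or the third control). It gave 1 to 2 in iBAT at 34 °C, 0 to 1 in quadriceps at 34 °C (0 without the first or second control or the second warm library) and 0 to 3 in ileum at 34 °C (3 without the first warm library, 1 without the second control). The tests between depots gave 2 to 4 for iBAT and ingSAT, 0 to 2 for iBAT and pgVAT and 0 to 1 for ingSAT and pgVAT, and the test between temperatures in iBAT gave 2 to 3. In bone marrow, with 6 libraries a group, this was not run.

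Replicate numbers did not pair the samples. For this check, the mean of each temperature group was first subtracted from the log2 CPM of each gene. In none of the 10 tissues with numbers was the correlation of what remained over 0.1 in every same-numbered pair (lowest −0.690, highest 0.473). The replicate block moved the count over all genes from 393 to 177 in brain and from 1179 to 809 in pgVAT, and beyond the 2 regulators in pgVAT changed no count of called regulators. The labels give no replicate numbers for the warm set and quadriceps, and the numbers in their column names served only to name libraries, so the block was not fitted there.

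The order of levels at 22 °C without the second brain library was an alternative chosen after seeing the data. Genes at low counts, such as Esrrg in ingSAT and Ebf2 in liver, ileum and spleen, are limited by depth.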
